A study of Mus musculus with 4 samples.

Results

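Cytosolic ribosomal protein genes were examined in bone-marrow-derived macrophages of C57BL/6J mice that had been stimulated at 100 ng/mL for 60 min. The genes were chosen by symbol, as protein-coding Rpl and Rps genes without the Rps6k kinases and without annotated pseudogenes. No measured value entered the rule, but earlier results of these data were known when it was chosen. The rule found 86 of the 55536 genes listed. Of these, 46 encode core proteins of the large (60S) subunit and 31 encode core proteins of the small (40S) subunit. A further 8 are paralogues (Rpl3l, Rpl7l1, Rpl10l, Rpl22l1, Rpl36al, Rpl39l, Rps27l and Rps27rt), and Rps19bp1, a regulator of the deacetylase Sirt1, shares the symbol pattern without being a ribosomal protein. The core proteins Fau and Rack1 carry other symbols and are not among the 86.

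All 4 libraries, biological replicates 1 to 4, were polyA-selected RNA of stimulated cells. Lipid A is given as the agent in one label field and lipoprotein A in another, so it is called the stimulus here. Age and sex were not collected, and all 4 libraries carry the same donor label. Nothing in the labels says whether they came from separate cultures or animals. P-values of the contrast between libraries below therefore rest on the spread among these 4 samples alone, part or all of which may be technical. Those of the chi-square test below measure departure from counting error only. Unstimulated cells were not analysed here, so no value below is a response to the stimulus. Counts assigned to genes came to 26917324, 30042947, 35277710 and 39438414 in replicates 1 to 4, and libraries 1 and 2 were made from 6 read files each, against 4 each for libraries 3 and 4. The macrophage markers Lyz2, Csf1r, Adgre1, Cd68, Cd14, Itgam and Mpeg1 summed to 20966, 36991, 22068 and 30227 TPM (transcript abundance scaled to message length and library total), whereas B cell, T and NK cell, erythroid and fibroblast markers each summed to under 1 TPM in every library. Granulocyte markers were measurable and summed to 198, 108, 728 and 69.0 TPM, highest in replicate 3.

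A ribosome carries one copy of nearly every one of these proteins, with the acidic stalk proteins Rplp1 and Rplp2 as the exception, so the genes are usually described as a coordinately expressed set. Their messages belong to the TOP class, which begin with a C followed by an uninterrupted run of pyrimidines, and whose translation is switched by mTORC1 through Larp1. The genes are also known for many intronless processed pseudogenes, for intronic snoRNA genes, and for proteins with roles off the ribosome.

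The starts of 6 members are shown because the TOP class is defined there. In the window given below, 4 of them have a run of the kind counted there, and Rpl5 and Rpl3l do not. RefSeq starts (GRCm38.p6) were matched for 66 of the 86 genes. Each line gives 20 bases before and 25 from the annotated start, 5′ to 3′, with capitals on the longest pyrimidine run led by C that begins within 5 bases before to 25 after the start; runs further upstream are not marked. Rps24 (chr14:24490658-24490702, plus strand) and Rps27 (chr3:90213624-90213668, minus strand) were among the most abundant members. Rpl38 (chr11:114668560-114668604, plus strand) and Rps15a (chr7:118116123-118116167, minus strand) begin their run at the annotated start itself. Rpl5 (chr5:107900508-107900552, plus strand) was the least abundant core member. Its annotated start lay 26 bases from that of its leading GENCODE transcript, and the pyrimidine run that opens its line falls before the window. Rpl3l (chr17:24732665-24732709, plus strand) is a muscle paralogue. Its annotated start lies inside the gene (chr17:24727820-24736143), at the start of its leading coding transcript.
Rps24: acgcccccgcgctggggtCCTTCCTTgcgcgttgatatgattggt
Rps27: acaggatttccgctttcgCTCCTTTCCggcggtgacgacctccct
Rpl38: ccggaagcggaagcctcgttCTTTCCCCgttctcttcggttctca
Rps15a: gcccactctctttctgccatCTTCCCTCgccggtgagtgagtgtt
Rpl5: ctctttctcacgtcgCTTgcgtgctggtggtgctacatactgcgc
Rpl3l: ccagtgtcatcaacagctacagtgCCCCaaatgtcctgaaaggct
A C followed by at least 6 further pyrimidines, within 5 bases before to 25 after the annotated start, was found in 26 of the 66 members (39.4%), against 12.3% of the 27025 genes with a RefSeq promoter. Over the 250 bases before and 50 from the start, on both strands, the ETS core CCGGAAG was found in 24 members (36.4%), against 9.12% of all promoters. The YY1 core CCATNTT was found in 20 members (30.3%) against 16.3%, the TATA box TATAAA in 6 (9.09%) against 14.2%, and the E-box CACGTG in 5 (7.58%) against 7.24%. These matches describe letters near annotated starts, which lay away from the start of the leading GENCODE transcript in some members (up to 493 bases), and they are not measured sites. For each member the start nearest that transcript was taken, but for all genes the first listed start. The shares of members and of all genes were thus not drawn alike.

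Ribosomal protein messages ranked near the top of the macrophage transcriptome. Together they held 7.42, 7.72, 6.26 and 7.84% of all gene TPM in replicates 1 to 4, a mean of 7.31 ± 0.725% (SD, n = 4). Replicate 3 had the lowest share. The messages are short, and their share of counts was smaller, 2.03 ± 0.145% (SD, n = 4). Ribosomal RNA, mitochondrial ribosomal RNA included, took 12.4, 3.43, 4.700 and 7.28% of counts and enters the TPM denominator. Without ribosomal RNA and mitochondrial genes, the members' share of TPM was 8.64 ± 0.736%. All 77 core members averaged above 100 TPM; 50 were among the 200 most abundant of 22028 protein-coding genes, and 76 were among the first 500. The exception was Rpl5, at rank 1139.

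The core messages spanned a 26.01-fold range of mean TPM, with Rplp1 at the top and Rpl5 at the bottom. The range was 7.09-fold once the TPM of related genes (the sequence copies described below) was added to each. With these added, Rpl41 came to 2828, 2891, 2562 and 3443 TPM and Rplp1 to 3217, 3034, 1621 and 2730 TPM in replicates 1 to 4. Rpl41 was then the higher in replicates 3 and 4. Without related genes, the median of the 77 core messages was 824 TPM, and 61 of them lay within 2-fold of it. The large-subunit genes had median levels of 703, 695, 604 and 634 TPM in replicates 1 to 4, against 999, 1026, 818 and 1018 TPM for the small-subunit genes, so the large subunit was lower in each library. On the log2(TPM + 0.1) scale the median of large minus small was -0.55 ± 0.10 (SD, n = 4), negative in all 4 libraries; its mean was -0.33 in a second deposited quantification and -0.32 with related genes added. Shorter messages had higher TPM: the 23 core genes with an effective length under 300 bases had a median of 1319 TPM, and the 54 longer ones 625 TPM. Across the 77 core genes in the same 4 libraries, Spearman's rho of mean TPM with effective length was -0.63, and of mean CPM (counts scaled to library size only) with effective length 0.45. The difference between subunits was present among the shorter genes, with medians of 1119.9 TPM over 13 large-subunit genes and 1396 TPM over 10 small-subunit genes, and among the longer ones, with 595 TPM over 33 and 756 TPM over 21. Effective length is the transcript length less roughly the mean fragment length, and that difference was 254, 257, 273 and 283 bases in replicates 1 to 4, so it weighs most on messages such as Rps27, with an effective length of 100.1 bases.

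**Figure D1:**
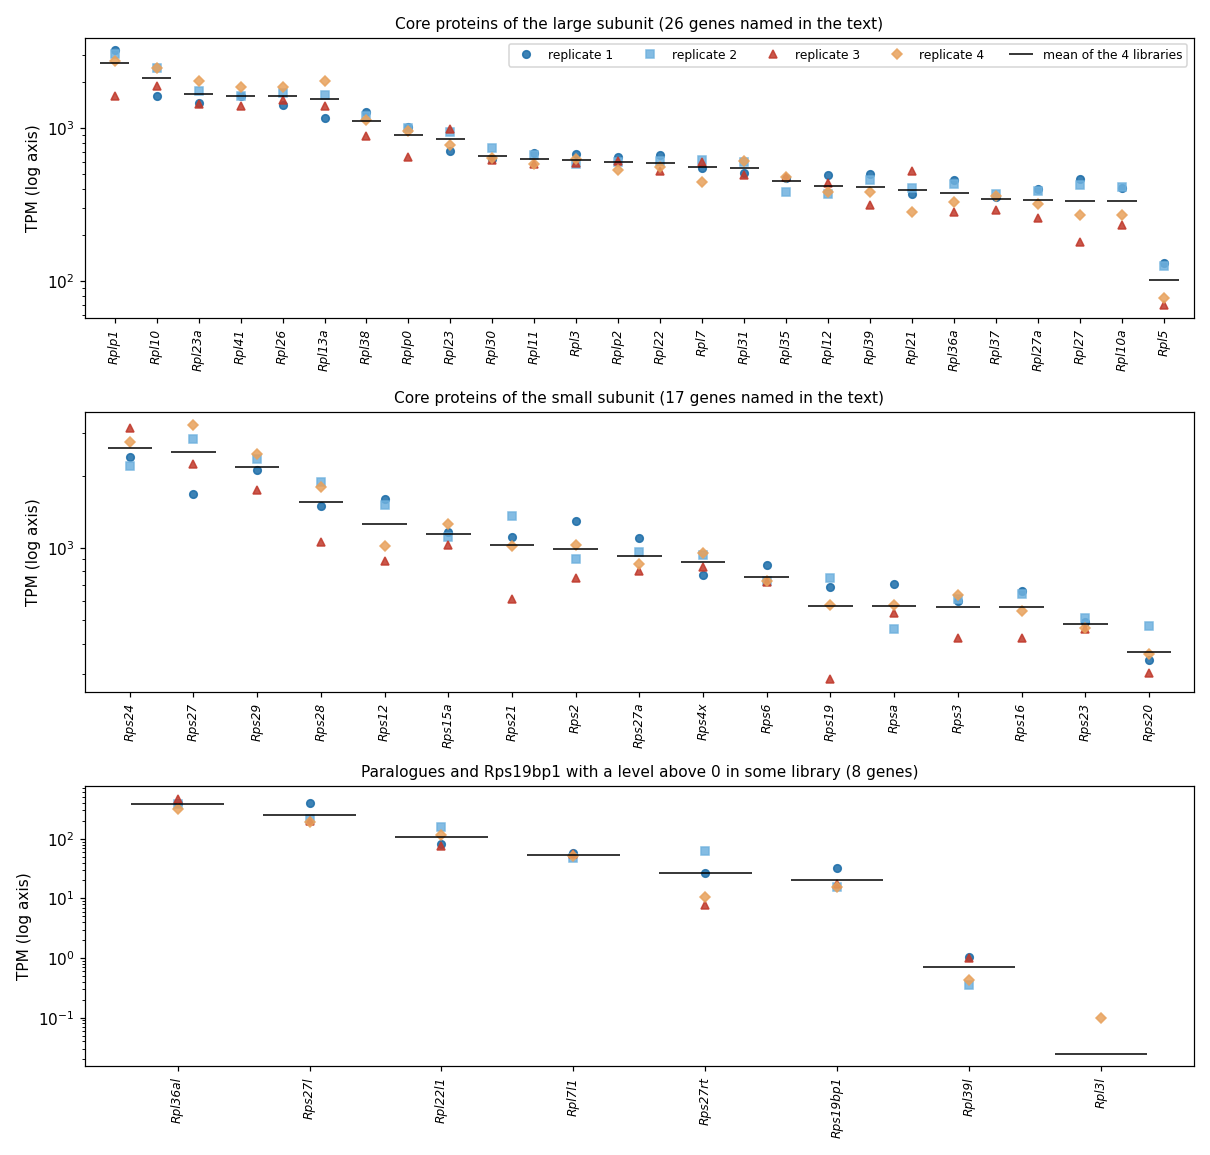
TPM (log axis) of the members named in the text in the 4 libraries, ordered by mean level, for large-subunit genes, small-subunit genes, and paralogues with Rps19bp1; horizontal bars are means of the 4 libraries. Core genes run from 2643 TPM for Rplp1 to 102 TPM for Rpl5, and the triangles of replicate 3 lie lowest for many of them.

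Among the 10 most abundant members were Rplp1, Rps24, Rps27, Rps29, Rpl10, Rpl23a, Rpl41, Rpl26 and Rps28. Rplp1 (chr9:61913284-61914542, mm10), one of the stalk proteins that recruit elongation factors, had 3206, 3021, 1619 and 2725 TPM in replicates 1 to 4. Replicate 3 was the low library. Rps24 (chr14:24487125-24496959), needed for pre-18S rRNA processing, had 2379, 2183, 3144 and 2763 TPM and was highest in replicate 3. Rps27 (chr3:90212522-90213651), a zinc-finger protein of the small subunit, had 1684, 2850.1, 2233 and 3255 TPM and was lowest in replicate 1. Rps29, another small zinc-binding protein, had 2108, 2349, 1748 and 2469.7 TPM. Rps29 was lowest in replicate 3, unlike Rps27. The X-linked Rpl10, which joins the large subunit late and completes it near the peptidyl transferase centre, had 1623, 2452, 1895 and 2453 TPM. Rpl23a, which lies at the exit of the nascent-chain tunnel, averaged 1661 ± 274 TPM (SD, n = 4 here and below), and Rpl26, also near the tunnel exit, 1618 ± 194 TPM. Rpl41, a very small peptide at the subunit interface, averaged 1622 ± 182 TPM, and Rps28, 1558 ± 371 TPM. Neighbours in this order did not all separate: Rpl23a, Rpl41, Rpl26 and Rps28 were within 1 SD of one another. With related genes added, Rps28 came to 2284, 2948, 2515 and 3457 TPM, against 1536, 1883, 1501 and 2109 TPM for Rpl23a. Rpl41 and Rps28 then lay above Rpl23a and Rpl26 in every library.

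The stalk genes were far from equal. Rplp0, the stalk base, which binds the stalk dimers to 28S rRNA, had 1013, 996, 645 and 957 TPM, and Rplp2 had 646, 604, 607 and 533 TPM. In every library Rplp1 was the highest of the trio, and Rplp0 was above Rplp2, with Rplp1 and Rplp0 lowest in replicate 3 and Rplp2 in replicate 4. Rplp2 was even in TPM but not in counts, with 230.0, 218, 122 and 143 CPM. The transcript Rplp2-201 held 71.9, 70.8, 23.5 and 44.1% of the gene's TPM in replicates 1 to 4, lower in replicates 3 and 4.

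Members with known roles off the ribosome were spread over the set. Rpsa, which is also the laminin receptor precursor, had 710.1, 463, 537 and 579 TPM, lowest in replicate 2. Rps27a, which is made as a fusion with ubiquitin, had 1099, 960.1, 804 and 862 TPM, highest in replicate 1. Rps6, the substrate of the S6 kinases, had 847, 730.3, 720.2 and 727 TPM, and Rps3, which in human cells also binds NF-kB subunits, had 605, 615, 422 and 639 TPM. These 4 genes differed by at most 1.58-fold between libraries in scaled counts. Rpl13a, which in human myeloid cells is released to silence inflammatory messages, had 1157, 1638, 1392 and 2042 TPM, highest in replicate 4. Rpl11, which with Rpl5 and 5S rRNA binds Mdm2 when ribosome assembly fails, had 689, 664, 583 and 587 TPM, and Rpl5 had 132, 126, 70.04 and 78.05 TPM. Alone, Rpl5 was below its partner Rpl11 in each library. With related genes added, Rpl5 came to 648, 720.3, 657 and 628 TPM and Rpl11 to 759, 736, 622 and 623 TPM, so that Rpl5 was the higher in replicates 3 and 4.

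The least abundant core genes after Rpl5 were Rpl10a, with 407, 415, 234 and 273 TPM, and Rpl27, with 465, 425, 179.8 and 271 TPM. Both were higher in replicates 1 and 2 than in replicates 3 and 4. With related genes added this held for Rpl10a, at 499.6, 525, 366 and 410.3 TPM, but not for Rpl27, at 908, 813, 722 and 914 TPM.

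Paralogues covered the widest span. Rpl36al, a copy of Rpl36a on an autosome that encodes nearly the same protein, had 391.8, 381, 466 and 321 TPM, against 456, 434, 285 and 329.7 TPM for the X-linked Rpl36a. Rpl36al came to 85.99, 87.8, 164 and 97.3% of Rpl36a, so the pair was about equal in 3 libraries, with the paralogue above the core gene in replicate 3. With related genes added, Rpl36al had 394, 381, 466 and 324 TPM, against 617, 627, 807 and 850.3 TPM for Rpl36a, and was the lower in every library, at a mean of 55.1%. Rps27l, a p53-responsive paralogue of Rps27, had 394, 211, 196 and 190.3 TPM, or 11.4% ± 8.11% of Rps27; replicate 1 was high and the other three were alike. Rpl22l1, which rises in mice lacking Rpl22, had 81.7, 157, 75.9 and 115 TPM, against 663, 612, 521 and 558 TPM for Rpl22, or 18.3% ± 6.03% of it. The paralogue was highest in replicate 2, where Rpl22 was not. Rpl7l1 had 57.5, 46.9, 55.4 and 52.5 TPM, against 547, 622, 601 and 447 TPM for Rpl7, or 9.76% ± 1.798%. It ranged 1.27-fold in scaled counts, the least of the 5 paralogues with enough counts to test.

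The remaining paralogues were low or listed at 0. Rps27rt, a retrotransposed copy of Rps27, had 26.5, 61.5, 7.67 and 10.6 TPM, or 1.100% ± 0.915% of Rps27. The testis-enriched Rpl39l had 1.04, 0.350, 0.990 and 0.430 TPM, against 500.1, 459.5, 316 and 383 TPM for Rpl39, or 0.177% ± 0.106%. The muscle-enriched Rpl3l had 0, 0, 0 and 0.10 TPM, against 676, 581, 592 and 629 TPM for Rpl3, and the testis-enriched Rpl10l was listed at 0 in all 4 libraries. A count of 0 allows up to 0.109, 0.1003, 0.0845 and 0.0784 CPM in replicates 1 to 4 (3 counts per library, counting error only). Rps4l and Rpl37rt, paralogues outside the 86 genes, stood at 0.376% ± 0.224% of Rps4x and 23.4% ± 6.94% of Rpl37; the mean for Rpl37rt was 43.2% in the second quantification. Rps19bp1, the gene that is no ribosomal protein, had 32.4, 15.3, 17.4 and 15.4 TPM, highest in replicate 1.

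**Figure D2:**
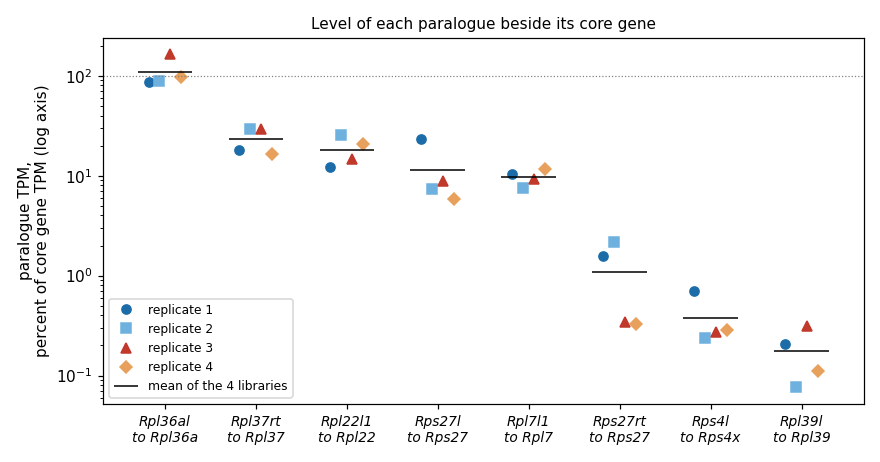
TPM of each paralogue as a percent of the TPM of its core gene (log axis) in the 4 libraries, with bars at the means and a dotted line at 100%. Rpl36al lies near or above 100%, while Rpl39l and Rps4l lie below 1%; Rpl3l and Rpl10l are too low to be drawn.

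Most core members ranged less than 2-fold between libraries. Variation was tested by a chi-square test of counts against effective library sizes (3 degrees of freedom, Benjamini-Hochberg adjustment), and a gene was called variable when it also ranged at least 2-fold in scaled counts. Of the 86 members, 83 passed the filter of a mean of at least 10 counts; Rpl3l, Rpl10l and Rpl39l did not. All 83 varied beyond counting noise, as did 88.3% of the 12626 genes tested. Only 8 of the 83 (9.64%) were called variable, against 33.1% of all genes tested. Of the 2936 genes at least as abundant in CPM as the lowest core member, 19.8% were variable, against 5 of the 77 core members (6.49%). The median fold range was 1.38 for core members and 1.49 for those abundant genes. The steadiest core gene was Rps15a, at 1.07-fold. Its TPM was 1165, 1111, 1027 and 1260.0 in replicates 1 to 4.

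The 8 variable members were Rps19, Rpl27, Rps21, Rps16, Rps20, Rps27l, Rps27rt and Rps19bp1, with adjusted p below 0.05 in each. Rps19, the gene most often mutated in human Diamond-Blackfan anaemia, had 688, 751, 285 and 580.3 TPM, and its scaled counts ranged 2.46-fold. Rps21 had 1109.8, 1355, 617 and 1023 TPM (2.23-fold), and Rps16, whose tail reaches the P site, 663, 643, 423 and 549 TPM (2.16-fold). Rps20, of the 40S head, had 342, 476, 304 and 363 TPM (2.16-fold), and Rpl27 ranged 2.46-fold. These ranges are of scaled counts, and in TPM Rps16 and Rps20 ranged less than 2-fold. In these 5 core genes replicate 3 was the lowest library. Of the others, Rps27rt ranged 8.04-fold and was highest in replicate 2, whereas Rps27l (2.08-fold) and Rps19bp1 (2.06-fold) were highest in replicate 1. Without replicate 3, 3 members were variable. With related genes added, Rpl27 ranged 1.53-fold and was no longer called, and the other 7 were. For Rps21, Rps27l, Rps27rt and Rps19bp1 the related genes added no TPM, so this addition could not test their calls. Members were not counted as related genes of one another, so Rps27 was never added to Rps27rt.

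The low level in replicate 3 extended over most of the set. On the log2(CPM + 1) scale, 65 of the 77 core genes were below their own mean in replicate 3, against 51.0% of all genes tested, and 50 (30 of the large and 20 of the small subunit) were lowest there, against 22.8% of all genes. The median deviation of core genes from their mean was 0.07, 0.11, -0.20 and 0.06 in replicates 1 to 4, and that of all genes tested stayed within 0.01 of 0. Large-subunit genes had medians of 0.06, 0.12, -0.19 and 0.06 and small-subunit genes 0.09, 0.11, -0.26 and 0.03. Replicate 3 was thus low in both subunits. A minority went the other way: Rps24, Rpl23, Rpl7, Rpl21 and Rpl35, chosen after their values were seen, were highest in replicate 3 in CPM; Rpl21 had 373, 408, 522 and 282 TPM and Rpl23 714, 942, 985 and 777 TPM. Granulocyte markers, which were also highest in replicate 3 as given above, moved with this deficit, and their part in it was not tested. In bulk samples, fewer cells of a type and less RNA per cell cannot be told apart.

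**Figure D3:**
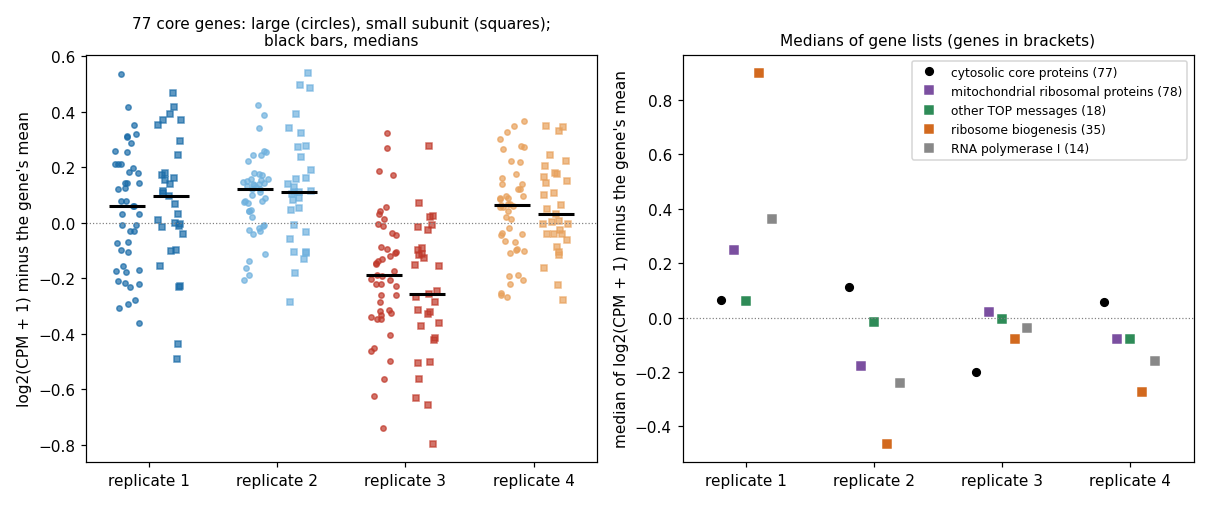
Left, log2(CPM + 1) of each of the 77 core genes minus its mean over the 4 libraries, for large-subunit (circles) and small-subunit (squares) genes, with medians as black bars. Right, medians of the same deviation for core genes and 4 other gene lists; core genes lie lowest in replicate 3 and ribosome biogenesis genes highest in replicate 1.

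Genes that build ribosomes did not follow the same libraries. Of 35 ribosome biogenesis factors, 29 were variable (82.9%, against 33.1% of all genes), and their median deviations were 0.90, -0.46, -0.08 and -0.27 in replicates 1 to 4. Nop56, a core protein of box C/D snoRNPs, had 105, 16.02, 29.5 and 19.3 TPM, and Fbl, the rRNA 2′-O-methyltransferase, 97.6, 41.6, 47.6 and 45.3 TPM. Both were highest in replicate 1, where the median deviation of core ribosomal protein genes was 0.07. The 14 RNA polymerase I genes had median deviations of 0.36, -0.24, -0.04 and -0.16, with 5 variable, and the 78 mitochondrial ribosomal protein genes had 0.25, -0.18, 0.02 and -0.08, with 13 variable (16.7%). The mitochondrial set was also far lower, with a median of 25.8 TPM, and was highest in replicate 1. The 18 other TOP messages, among them elongation factors, had 0.06, -0.02, -0.01 and -0.08, with 5 variable (27.8%). Eef1a1 had 6101, 6084, 5007 and 6160.1 TPM and Tpt1 2826, 3435, 4098 and 4083 TPM; Eef1a1 was lowest in replicate 3, and Tpt1 was highest in replicates 3 and 4. The 14 translation control genes had 4 variable, and of 10 proliferation genes 9 were variable, with median deviations of 1.63, -0.98, 0.21 and -0.60. Of the core ribosomal proteins outside the 86 genes, Fau, made as a fusion with a ubiquitin-like protein, had 950.5, 1332, 668 and 905 TPM and was variable, and Rack1, a scaffold on the 40S head, had 546, 522, 289 and 475 TPM. Fau and Rack1 were lowest in replicate 3, as most members were.

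The libraries made from 6 read files (replicates 1 and 2) were set against those made from 4 (replicates 3 and 4) as a technical contrast. edgeR's quasi-likelihood test called 0 of 83 members and 0 of 12701 genes (0.0%) at an adjusted p of 0.05, and the lowest adjusted p of a member was 1.00. DESeq2 called 0 members and 35 genes. At an unadjusted p under 0.05, edgeR gave 7 members (8.43%) and 290 genes (2.28%). The 7 were Rps27rt, Rpl27, Rps16, Rplp2, Rpl10a, Rps12 and Rps19. All 7 were higher in replicates 1 and 2, by 0.69 (SE 0.26) for Rps12 to 0.95 (SE 0.28) for Rpl27 among the core genes and 2.32 (SE 0.61) for Rps27rt on the log2 scale. The median log2 difference was 0.12 over members and 0.02 over all genes. In TPM, both of replicates 1 and 2 lay above both of replicates 3 and 4 in 25 of the 77 core genes (32.5%), against 19.8% of all genes with a mean of at least 1 TPM. The opposite held for 3 (3.90%), against 8.41%; Rps24 and Rpl35 were among these. In the second quantification the counts were 15 (19.5%) and 16 (20.8%) of the core genes, against 5.74% and 30.2% of all genes, so both the core genes and the background were placed differently from the first.

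Most members share sequence with copies elsewhere in the genome. By sequence, 80 of the 86 members had at least one related gene (at least 90% identity over at least 50% of the shorter transcript, and at least 150 bases), 1131 in all, of which 1099 are annotated as processed pseudogenes. In 14 copies the mean reached 300 TPM in at least one of the deposited quantifications. Of these 14, 12 held the whole coding sequence of the member's leading coding transcript with 0 mismatches, so reads that lie inside it have the same letters in either gene. The copies of Rps12 and Rpl12 are shown because the levels of Rps12 and Rpl12 differed far between the deposited quantifications. Each pair gives 60 bases of coding sequence from GENCODE M21 transcripts (mm10), 5′ to 3′, within 1 exon; a mismatch would be in capitals, and there is none. The stretches are Rps12 at chr10:23786821-23786880, minus strand; Rps12-ps3 at chr19:59322385-59322444, plus strand; Rpl12 at chr2:32962049-32962108, plus strand; and Gm10275 at chr10:29699194-29699253, minus strand.
Rps12: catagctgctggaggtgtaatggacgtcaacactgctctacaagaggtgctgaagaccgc
Rps12-ps3: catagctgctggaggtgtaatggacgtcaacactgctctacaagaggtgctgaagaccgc
Rpl12: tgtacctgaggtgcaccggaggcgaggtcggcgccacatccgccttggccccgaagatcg
Gm10275: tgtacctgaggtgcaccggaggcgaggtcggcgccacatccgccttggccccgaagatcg
Rps12-ps3 (chr19:59322290-59322783) matches the 396 coding bases of Rps12 throughout, and Gm10275 (chr10:29698746-29699380) the 495 of Rpl12.

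The authors deposited a second quantification of the same transcripts, and the pair of tables split these reads differently. Rps12, of the 40S beak, had 1602, 1513, 884 and 1018 TPM in the first and 22.5, 23.4, 20.5 and 18.5 TPM in the second. Rps12-ps3 had 98.1, 105, 23.8 and 16.5 TPM in the first and 1476, 1292, 925 and 965 TPM in the second. The second table thus placed most of the family's level on the copy, in every library. Rpl12, at the base of the stalk, likewise had 497, 370.4, 440.4 and 380.5 TPM in the first and 19.4, 6.53, 8.49 and 7.305 TPM in the second, while Gm10275 had 326, 292, 224 and 440.3 TPM and 978, 724, 968 and 1047 TPM. Rpl5 had between 6.89 and 14.3 TPM in the second, lowest in replicate 2 and highest in replicate 1. Its transcribed pseudogene Gm15500, which matches all 891 coding bases, had 516, 594, 587 and 549 TPM in the first and 453, 469, 559 and 511 TPM in the second. Summed with its related genes, Rpl5 came to 663 TPM in the first table, several times its own level. 

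In other families it was the copy that had little or no level in the second. Their sums were lower there as well. Rps28 with its related genes came to 1005, 1202, 812 and 1212 TPM in the second, against 2284, 2948, 2515 and 3457 TPM in the first. Sums for Rpl41 and Rps29 were also lower in every library, by more than the median ratio of 0.778 over genes. The copies' level thus did not pass whole to the member. Gm10443, which matches all 207 coding bases of Rps28, had 733, 995, 1439 and 1646 TPM in the first quantification and a mean below 0.01 TPM in the second. Gm10076, a copy of Rpl41 annotated as a lincRNA, had 1198, 1269, 1168 and 1602 TPM and 3.105, 1.83, 0.980 and 2.08 TPM. Gm14303, a copy of Rps29, had 863, 981, 129.7 and 69.7 TPM in the first and was listed at 0 in the second. It was far higher in replicates 1 and 2 than in replicates 3 and 4. Among the 121 related genes with a mean of at least 1 TPM in the first quantification, both of replicates 1 and 2 lay above both of replicates 3 and 4 in 73 (60.3%), against 19.8% of all genes, and below in 15 (12.4%), against 8.41%. Rpl36a-ps2 was below in this way, with 160.2, 192, 520.2 and 519 TPM. The fragment-length difference between libraries given above had the same division, and its part in this was not tested.

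**Figure D4:**
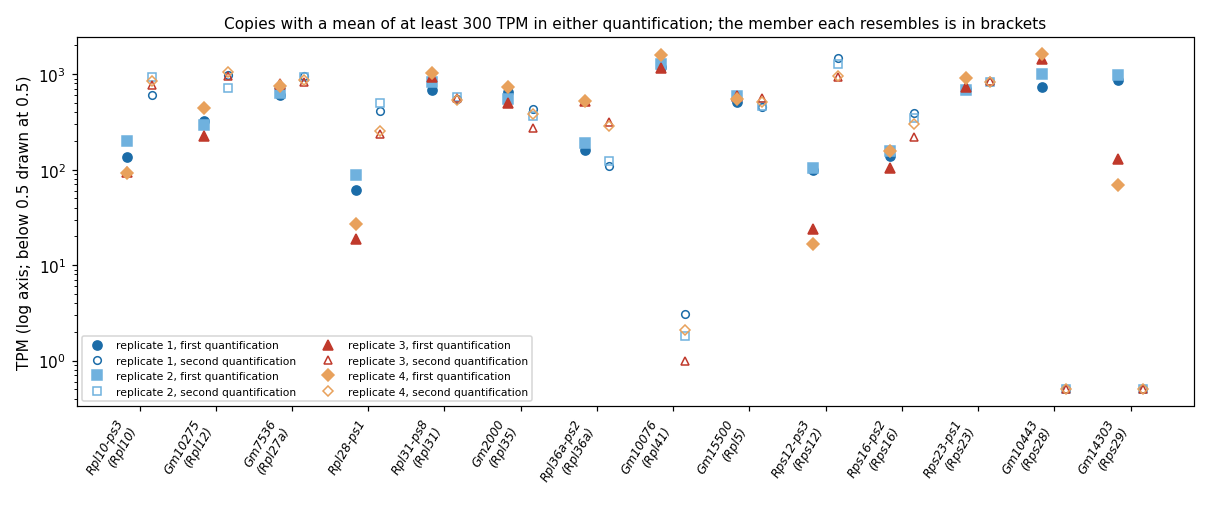
TPM (log axis) of the 14 copies with a mean of at least 300 TPM in either quantification, in each library, with filled symbols for the first and open symbols for the second quantification. Gm10443 and Gm14303 fall to the floor of the plot in the second. In the first, Gm14303, Rpl28-ps1, Rps12-ps3 and Rpl10-ps3 are higher in both of replicates 1 and 2 than in replicates 3 and 4. Gm10443, Rpl31-ps8, Gm7536, Rps23-ps1 and Rpl36a-ps2 are lower in both, and the remaining copies do not divide.

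To compare the tables gene by gene, the second was divided by 0.778, the median ratio of second to first over 10250 genes with at least 1 TPM in every library. On that scale 10 of the 83 members with a mean of at least 1 TPM differed at least 1.5-fold (12.05%), against 4.595% of all those genes, and all 10 were lower in the second. Beside Rps12, Rpl12 and Rpl5, these were Rpl10, Rps15a, Rps16, Rps23, Rpl27a, Rpl10a and Rps27rt. Rpl10 had 585, 712, 733 and 977 TPM in the second, and its copy Rpl10-ps3 605, 937, 769 and 850.1 TPM. Rps23, at the decoding centre, averaged 482 ± 24.4 TPM in the first, where Rps23-ps1 had 696, 683, 737 and 921 TPM. Rpl27a averaged 342 ± 65.6 TPM beside Gm7536 with 601, 640.3, 798 and 745 TPM. In both families the copy was above the member in every library. Rpl31 also stood below its copy, with 507, 599, 498 and 608 TPM, against 688, 838, 942 and 1039.8 TPM for Rpl31-ps8. Summed with related genes, 7 of the 83 families differed at least 1.5-fold between tables.

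**Figure D5:**
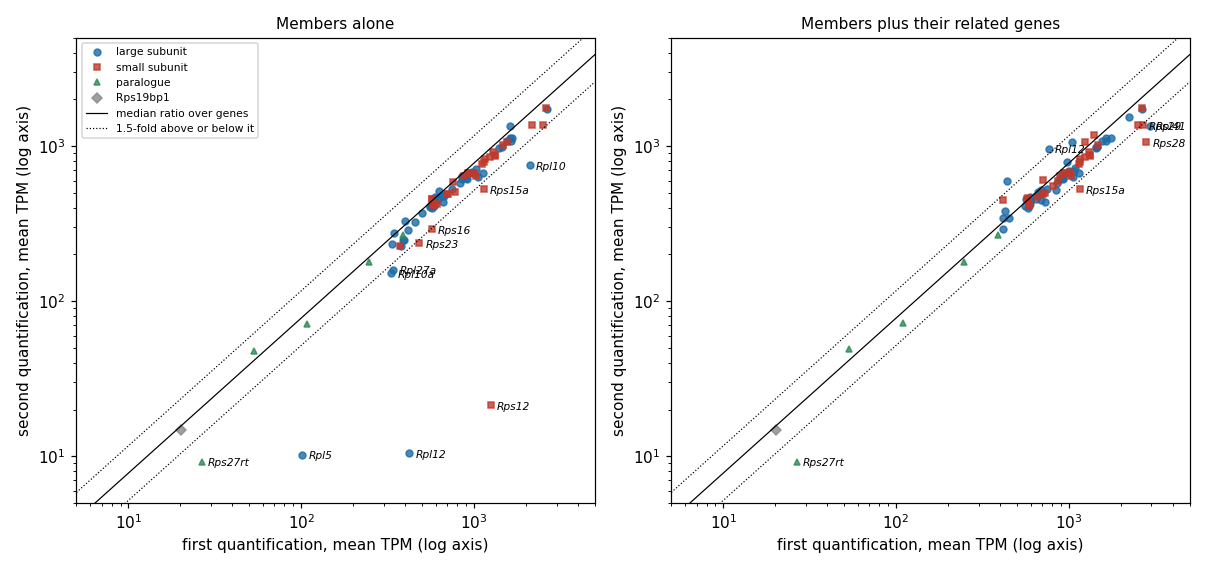
Mean TPM of members in the first and second quantification (both axes log) for members alone (left) and with related genes added (right); the solid line is the median ratio over genes and dotted lines lie 1.5-fold from it. Rps12, Rpl12 and Rpl5 fall far below the line alone; with related genes added, Rps12 and Rpl5 lie within 1.5-fold of it and Rpl12 lies above.

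Transcripts differed as well. For 50 of the 77 core genes, one transcript held at least 90% of TPM, and for 69 the same transcript led in both quantifications. In 6, no transcript held 50%, among them Rpl10 (45.8% in its leading transcript), Rpl13a (45.8%), Rpl30 (46.7%), Rps3 (44.2%) and Rpl31 (39.0%). Transcripts annotated as non-coding took a median of 0.436% of TPM and at least 5% in 12 genes. Rps20 had 84.6, 85.4, 92.99 and 89.00% on retained-intron transcripts in replicates 1 to 4, and Rps16 had 69.99, 74.3, 91.00 and 88.3%. In both, replicate 3 had the highest share. Rpsa had 59.4% of mean TPM on transcripts annotated for nonsense-mediated decay, and Rpl5 had 55.05% on retained-intron transcripts. These shares are model-based assignments among overlapping transcripts, not counts of spliced molecules.

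The members lie on 19 chromosomes, 4 of them on X, and 2 pairs were within 20 kb of each other. In one of these, Rps2 had 1297, 899, 752 and 1031 TPM beside a nearly silent Rpl3l. Within the spans of 30 members lie 58 annotated snoRNA genes on the same strand, up to 5 in one host. In the first quantification these had a count of at most 1.94 in any library, and 55 of the 58 were at 0 counts throughout. In the second the highest count was 14, and 30 were at 0 throughout. The RNA was selected for polyA tails, which box C/D and H/ACA snoRNAs lack, and the part of this in the low counts was not tested. No share over the 1507 annotated snoRNA genes was set beside these counts, so they are not read as a trait of the hosts.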

How the data were processed

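PolyA RNA-seq of 4 libraries was analysed. Per the file headers, the authors deposited gene tables with expected counts (estimated, not whole), TPM and posterior-mean TPM. Also per the file headers, the authors computed credibility bounds of TPM, read here as signal values and not printed. A second set of deposited transcript tables held estimated counts and TPM; it was summed by gene. Per the labels, the build is mm10; the aligner and quantifiers are not named in the labels or headers used. Expected counts were rounded for edgeR 4.0.16 (TMM, quasi-likelihood; default filter) and DESeq2 1.42.0; SciPy 1.17.1 gave the chi-square test, with TMM effective library sizes and a mean of at least 10 counts. TPM was logged with a pseudocount of 0.1, CPM with 1. Related genes came from BLAST 2.17.0 of GENCODE M21 transcripts. The chi-square test was run on simulated counts with counting error only, and edgeR on simulated counts with the same set dispersion for every gene. The spread between these libraries was not simulated, so these runs check the code only. Total gene counts per library, 26917324 to 39438414, set the counting error. Members and gene lists were chosen with earlier results of these data known. Genes were named by rule: the 10 highest and 10 lowest members, paralogue pairs, stalk genes, Rpsa, Rps27a, variable members, those with quantifications 1.5-fold apart, and those without a majority transcript; others illustrate known roles. A few genes that the rule names are not reported here.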

Additional observations from a re-analysis of the deposited data

Results flagged for a closer look

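In a group of 4 libraries, a value was singled out when its gap to the nearest other library relative to the whole range exceeded Dixon's critical value for 4 values, which chance does for about 1 in 20 groups. Of 85 members with a level above 0 in some library, 8 met it, of which 7 are given here, and so did the median of the small-subunit genes. No share over all genes was set beside this count, so it is not read as a trait of the members. In replicate 3, Rplp0 was low at 645 TPM, and Rps3 at 422 TPM. The median of the 31 small-subunit genes was also low there, at 818 TPM. In replicate 1, Rps27l was high at 394 TPM, Rps6 at 847 TPM and Rps19bp1 at 32.4 TPM. In replicate 2, Rpl35 was low at 382 TPM. In replicate 4, Rpl3l had 0.10 TPM where the other libraries had 0. Any level above 0 in a single library meets the rule by construction, so the rate of 1 in 20 does not apply to Rpl3l. No cause was tested.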

How the results depend on the processing

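The calls of variable members were 8 with DESeq2 size factors, with total gene counts and without the count filter, 10 in the second quantification, and 7 with related genes added, an alternative chosen after seeing the data; 83 passed without the 2-fold range, by construction. Leaving out each replicate gave 3 to 7 members, 3 without replicate 3. Over all genes, 4183 were variable, 11155 without the range, and 2100 to 3687 with a replicate left out. The read-file contrast called 0 members in each setting; over all genes it called 0, against 35 with DESeq2, 18 without the count filter, 10 in the second quantification, and 0 to 98 with a replicate left out. The members' share of TPM was 4.79% in the second quantification, 8.64% without ribosomal RNA and mitochondrial genes, 2.03% as a share of counts and 8.30% with related genes added. The median member level was 503 TPM in the second quantification and 830.4 TPM with related genes added. Large minus small stayed negative, at -0.33 in the second quantification, -0.43 as a mean and -0.32 with related genes added. Rpl3l to Rpl3 was 0.042% in posterior means, Rpl7l1 to Rpl7 was 11.9% and Rpl37rt to Rpl37 43.2% in the second quantification, and Rpl36al to Rpl36a 55.1% with related genes added. The median deviation in replicate 4 was -0.0072 to 0.0698 over the sets without another replicate, reversed without replicate 3, at -0.0072. Core genes with both of replicates 1 and 2 above both of replicates 3 and 4 were 25 in the first quantification, 15 in the second and 25 with related genes added; those with the opposite order were 3, 16 and 6 (chosen after seeing the data). Among means of single members, 50 values moved by over 1 SD and 258 did not. Orders between single members or libraries that change with related genes are given beside them for Rpl5, Rpl27, Rpl36al, Rpl41 and Rps28. Other orders also change and are not all given. The causes were not tested. No paired analysis was possible because all 4 libraries form 1 group.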
